A study of Mus musculus with 12 samples.

Results

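MHC class II molecules present peptides from engulfed proteins to CD4 T cells, and B7 ligands set how those T cells respond. The 10 genes described here were named as a list: the class II chain genes H2-Aa, H2-Ab1 and H2-Eb1, the peptide exchange genes H2-DMa and H2-DMb1, the invariant chain Cd74, the class II transactivator Ciita, and the B7 genes Cd80, Cd86 and Cd274. All 10 were among the 24346 gene symbols measured. Their values were read in every library of group 2 innate lymphoid cells (ILC2s), tissue-resident lymphocytes that make type 2 cytokines.

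The 12 libraries held RNA of ILC2s sorted from the lungs of C57BL/6 mice (C57BL/6J in the study's methods), with 3 libraries in each of 4 groups. WT mice and mice lacking semaphorin 6D (Sema6d−/−, called 6DKO in the labels) received either PBS or the alarmin IL-33 through the nose for 3 days. The Sema6d deletion is not described as limited to ILC2s. The labels give an IL-33 dose of 50 ng, whereas the study's methods give a higher dose. The study used adult mice. The cells were sorted as CD45-positive, Thy1.2-positive and ST2-positive, and lineage-negative for a mixture that included CD11c and F4/80, markers of dendritic cells and macrophages. Nothing in the labels says that each library came from a separate animal, so the p-values measure the spread between these samples.

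Class II chains pair in the endoplasmic reticulum with the invariant chain, which blocks the peptide groove and guides the complex to endosomes. There the invariant chain is cut down, and H2-DM exchanges its last fragment for antigen peptides. Dendritic cells, B cells and macrophages express these genes strongly under the control of Ciita, and activated ILC2s are known to carry class II and to present antigen to T cells at a lower level. CD80 and CD86 bind CD28 and CTLA-4 on T cells, and PD-L1, the product of Cd274, binds PD-1.

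Values are FPKM, which are scaled for transcript length and library size and carry no read totals. Relative depth, read from genes that stayed under 3 FPKM, differed 1.88-fold between the deepest library and the shallowest. It was mostly lower in the PBS libraries, at 0.739 to 0.998, than in the IL-33 libraries, at 0.968 to 1.39. PBS libraries varied more than IL-33 libraries. The median SD of log2(FPKM + 1) over the fitted genes was 0.65 in WT PBS and 0.70 in 6DKO PBS, against 0.29 in WT IL-33 and 0.28 in 6DKO IL-33. Between 7696 and 9287 genes were above 1 FPKM in the PBS libraries, and between 9917 and 10081 in the IL-33 libraries.

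Sema6d itself was still measured in the libraries labelled 6DKO. Its FPKM was 27.5, 46.1 and 37.5 in WT PBS and 29.0, 22.9 and 19.8 in 6DKO PBS. Under IL-33 it was 19.7, 35.5 and 28.7 in WT and 15.4, 13.6 and 13.8 in 6DKO. A value for the whole gene does not show which exons the reads came from, so it checks the labels only in part.

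The summed FPKM of 15 ILC2 markers, among them Gata3, Rora and Il1rl1, the gene of the IL-33 receptor chain ST2, lay between 6508 and 9893. All 15 were above 1 FPKM in each library except 6DKO PBS replicate 1, where Il13 was 0.436 FPKM. One library stood apart from the others. In 6DKO PBS replicate 2, all 7 markers of NK cells and ILC1 were above 1 FPKM, with Gzmb at 100.4 FPKM and Ncr1 at 58.9 FPKM. The same library had 5 of 9 measured alveolar macrophage markers above 1 FPKM, with a summed FPKM of 129, and the macrophage gene Lyz2 at 112 FPKM. Among the IL-33 libraries, 6DKO replicate 2 had the alveolar macrophage gene Chil3 at 394 FPKM. Chil3 was 83.1 FPKM in 6DKO IL-33 replicate 3, which also had the surfactant gene Sftpc at 97.2 FPKM. In 6DKO IL-33 replicate 1, Chil3 and Sftpc were listed at 0. WT PBS replicate 3 had the highest sum of mast cell and basophil markers, 207 FPKM, and B cell markers at 22.7 FPKM.

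H2-Ab1 and H2-Aa encode the β and α chains of the I-A molecule. H2-Ab1 was 1.01, 38.0 and 61.8 FPKM in WT PBS, 86.8, 28.6 and 83.1 FPKM in 6DKO PBS, 164, 152 and 229 FPKM in WT IL-33, and 486, 390 and 425 FPKM in 6DKO IL-33. Its means were 33.6 ± 30.7, 66.2 ± 32.6, 181 ± 41.3 and 434 ± 48.2 FPKM in these groups (SD, n = 3). All 6 IL-33 libraries lay above all 6 PBS libraries, and the 3 libraries of 6DKO IL-33 lay above the 3 of WT IL-33, while the PBS groups overlapped. H2-Aa was 0.38, 0 and 33.8 FPKM in WT PBS and 96.4, 10.2 and 33.7 FPKM in 6DKO PBS. It was 67.6, 80.5 and 225 FPKM in WT IL-33 and 291, 280 and 324 FPKM in 6DKO IL-33, with means of 124 ± 87.4 FPKM and 298 ± 22.7 FPKM (SD, n = 3). For H2-Aa, 6DKO PBS replicate 1 lay above 2 of the WT IL-33 libraries, so treatments overlapped across genotypes but not within either genotype.

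H2-Eb1 encodes the β chain of the I-E molecule, whose α chain gene H2-Ea is not expressed in C57BL/6 mice and was not among the measured symbols. It was 2.38, 0 and 8.30 FPKM in WT PBS and 13.6, 0 and 14.8 FPKM in 6DKO PBS. It was 44.1, 46.4 and 88.3 FPKM in WT IL-33 and 129, 111 and 175 FPKM in 6DKO IL-33. Again no PBS library reached an IL-33 library, and every 6DKO IL-33 library exceeded every WT IL-33 library.

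Cd74, the invariant chain gene, had the highest level per transcript length of the 10 genes in all 4 group means. It was 8.34, 55.2 and 66.7 FPKM in WT PBS, 167, 23.1 and 103 FPKM in 6DKO PBS, 285, 337 and 608 FPKM in WT IL-33, and 936, 607 and 751 FPKM in 6DKO IL-33. Its means were 43.4 ± 30.9 FPKM in WT PBS, 97.6 ± 71.9 FPKM in 6DKO PBS, 410 ± 173 FPKM in WT IL-33 and 765 ± 165 FPKM in 6DKO IL-33 (SD, n = 3). The group mean placed Cd74 at rank 2194 of 24346 genes in WT PBS and at rank 169 in 6DKO IL-33. WT IL-33 replicate 3, at 607.60 FPKM, lay just above 6DKO IL-33 replicate 2, at 606.97 FPKM, so for Cd74 the genotypes overlapped in these 2 libraries. In the IL-33 libraries the ratio of Cd74 to H2-Ab1 lay between 1.56 and 2.66, and that of H2-Eb1 to H2-Ab1 between 0.266 and 0.412. The ratio of H2-Aa to H2-Ab1 varied more widely, between 0.413 and 0.985.

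**Figure D1:**
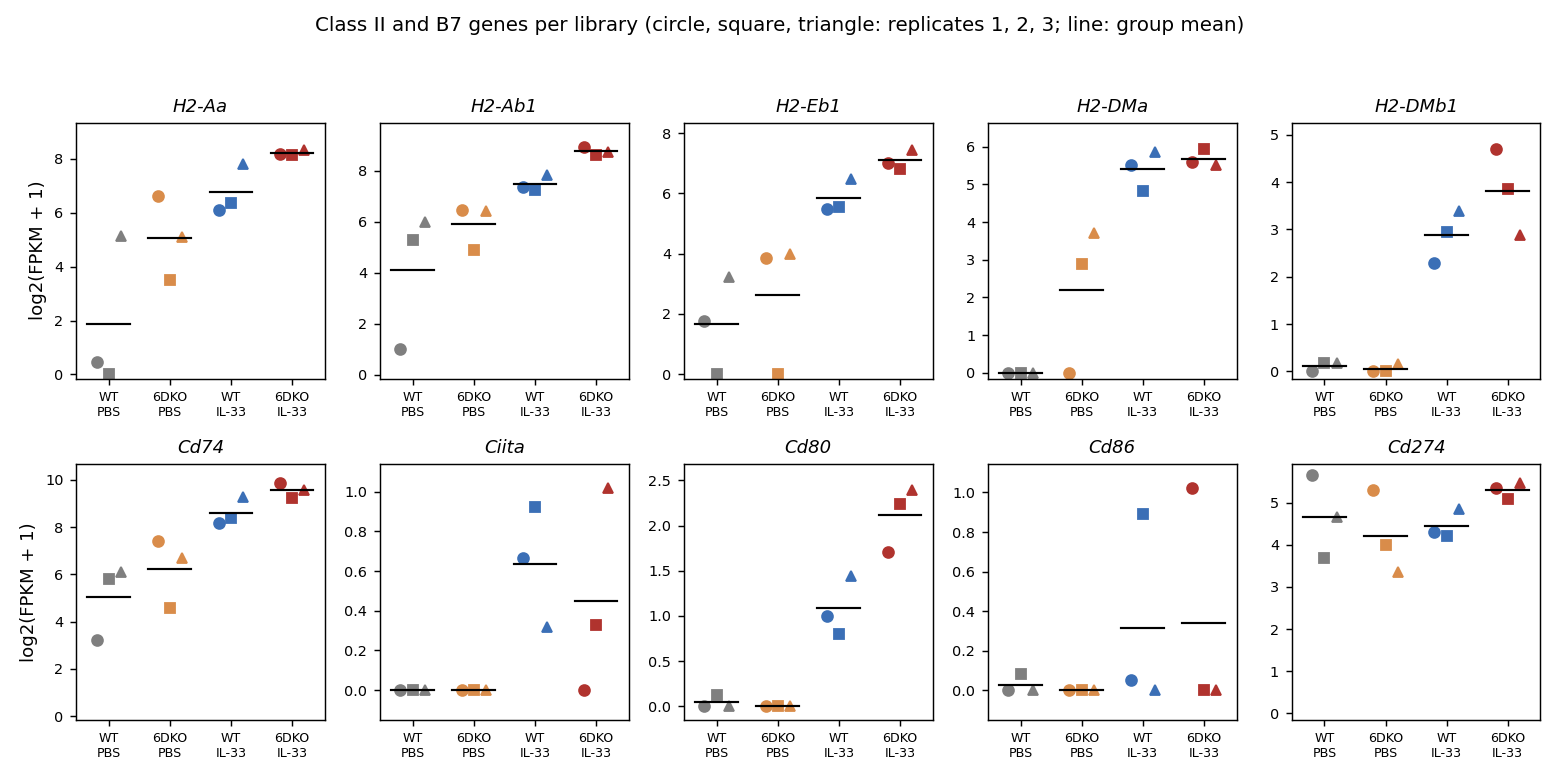
Each panel plots log2(FPKM + 1) of 1 gene in the 12 libraries, with circles, squares and triangles for replicates 1, 2 and 3 and a line at the group mean. Each panel has its own scale, and 6 of the 10 genes have all 6 IL-33 libraries above all 6 PBS libraries.

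The peptide exchange genes were close to 0 in most PBS libraries. H2-DMa, the α chain of H2-DM, was listed at 0 in all 3 WT PBS libraries and in 6DKO PBS replicate 1, and was 6.37 and 11.99 FPKM in 6DKO PBS replicates 2 and 3. It was 44.4, 27.3 and 57.6 FPKM in WT IL-33 and 47.5, 59.8 and 44.6 FPKM in 6DKO IL-33, with overlapping genotypes. Of 3168 genes with a mean between 20 and 200 FPKM over the IL-33 libraries, 58 (1.83%) had a value of 0 in 4 or more PBS libraries. Among weaker genes, with a mean between 1 and 20 FPKM, 832 of 6477 (12.8%) did.

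H2-DMb1, 1 of the 2 genes for the β chain of H2-DM, was 0, 0.13 and 0.13 FPKM in WT PBS and 0, 0 and 0.11 FPKM in 6DKO PBS. It was 3.92, 6.71 and 9.54 FPKM in WT IL-33 and 24.9, 13.4 and 6.34 FPKM in 6DKO IL-33. After multiplication by relative depth its values were whole multiples of the smallest value, to within 0.05. Taken as reads, these were 0, 1 and 1 in WT PBS, 0, 0 and 1 in 6DKO PBS, 48, 65 and 84 in WT IL-33, and 245, 114 and 59 in 6DKO IL-33. The neighbouring gene H2-DMb2 also encodes a β chain, and 254 of the 1604 distinct 75-base stretches in the annotated transcripts of H2-DMb1 (15.8%) occur in H2-DMb2 too, so reads from these stretches cannot be assigned to either gene. H2-DMb2 gave 0, 1 and 0 reads in WT PBS, 0, 0 and 2 in 6DKO PBS, 28, 18 and 10 in WT IL-33, and 79, 41 and 64 in 6DKO IL-33.

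Ciita, which drives class II transcription, had a value of 0 in each of the 6 PBS libraries. In WT IL-33 it was 0.58, 0.90 and 0.25 FPKM, and in 6DKO IL-33 0, 0.25 and 1.03 FPKM. The library with Ciita at 0, 6DKO IL-33 replicate 1, was the one with the most Cd74 and H2-Ab1. Under IL-33 the genotypes overlapped for Ciita, and it was not called between them.

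Among the B7 genes, Cd80 was listed at 0 in 5 of the 6 PBS libraries and was 0.09 FPKM in WT PBS replicate 2. It was 1.001, 0.745 and 1.72 FPKM in WT IL-33 and 2.27, 3.72 and 4.26 FPKM in 6DKO IL-33. Its values too were whole multiples of the smallest. Taken as reads, they were 17, 10 and 21 in WT IL-33 and 31, 44 and 55 in 6DKO IL-33, against 1 read in all PBS libraries together. The mean was 2.96-fold higher in 6DKO IL-33 than in WT IL-33, and the groups did not overlap.

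Cd86 was close to 0 throughout. It was 0.06 FPKM in WT PBS replicate 2 and was listed at 0 in the other PBS libraries. Under IL-33 it was 0.04, 0.86 and 0 FPKM in WT and 1.03, 0 and 0 FPKM in 6DKO, which corresponds to 1, 18 and 0 reads and to 22, 0 and 0 reads. A single library in each genotype held nearly all of its signal.

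Cd274 was present without IL-33. It was 49.1, 11.9 and 24.1 FPKM in WT PBS and 38.7, 14.9 and 9.28 FPKM in 6DKO PBS. It was 18.7, 17.5 and 27.8 FPKM in WT IL-33 and 40.1, 32.8 and 43.0 FPKM in 6DKO IL-33. PBS and IL-33 overlapped in both genotypes, whereas under IL-33 the 6DKO libraries lay above the WT libraries.

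The first comparison asked which of the 10 genes IL-33 changed. Changes were fitted with limma on log2(FPKM + 1), a scale that shrinks the changes of weakly expressed genes, over 11468 genes, and a gene was called at a Benjamini-Hochberg adjusted p under 0.05. All 10 genes were kept in the fit, of which 8 passed the filter used for unlisted genes, a mean of 0.5 FPKM, and Ciita and Cd86 did not. Averaged over the genotypes, 7 of the 10 genes were called higher under IL-33, where 5.89% of all fitted genes were. The 7 were H2-Aa, H2-Ab1, H2-Eb1, H2-DMa, H2-DMb1, Cd74 and Cd80. The median log2 fold change was 3.19 over the 10 genes and 0.16 over all fitted genes. The 10 genes were chosen with earlier results of these data known, so their contrast with all genes is a description only.

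In this comparison H2-DMa rose by 4.44 ± 0.54 on the log2 scale (SE; limma adjusted p = 0.000527) and H2-Eb1 by 4.33 ± 0.72 (limma adjusted p = 0.0036). H2-Aa rose by 4.02 ± 0.84 (limma adjusted p = 0.0129) and Cd74 by 3.45 ± 0.56 (limma adjusted p = 0.00305). For the genes with at most 1 read in each PBS library, H2-DMb1 rose by 3.26 ± 0.36 (limma adjusted p = 0.000262) and Cd80 by 1.58 ± 0.22 (limma adjusted p = 0.00123). The size of both changes depended on the scale, at 5.93 for H2-DMb1 and 4.18 for Cd80 with a pseudocount of 0.1. After quantile normalization the change of Cd80 was 0.82 and was not called (limma adjusted p = 0.111, range over all alternatives 0.000283 to 0.111). H2-Ab1 rose by 3.12 ± 0.71 (limma adjusted p = 0.0197). In a two-sided exact permutation test within genotypes, each of these 7 genes had p = 0.005, the smallest this test can give.

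The other members were not called. The averaged log2 fold change was 0.54 for Ciita (limma adjusted p = 0.147; exact permutation p = 0.02), 0.31 for Cd86 (limma adjusted p = 0.488; -0.23 after quantile normalization) and 0.43 for Cd274 (limma adjusted p = 0.557). Values for 6 of the 10 genes in all 6 IL-33 libraries were above those in all 6 PBS libraries, which held for 4.1% of all fitted genes. These were H2-Ab1, H2-Eb1, H2-DMa, H2-DMb1, Cd74 and Cd80.

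Within WT mice, 5 of the 10 genes were called higher under IL-33, against 2.75% of all fitted genes, and within 6DKO mice likewise 5 of the 10, against 1.9%. H2-Eb1, H2-DMa, H2-DMb1 and Cd74 were called in both genotypes, H2-Aa in WT and Cd80 in 6DKO. The number of calls within 1 genotype changed when single libraries were left out. In WT it fell to 1 without WT IL-33 replicate 3, to 2 without WT PBS replicate 1, WT IL-33 replicate 1 or 2, or 6DKO IL-33 replicate 3, and to 3 without WT PBS replicate 2 or 6DKO IL-33 replicate 1 or 2. In 6DKO it fell to 2 without any 1 of the 6 IL-33 libraries. Calls over all genes fell too when an IL-33 library of the same genotype was left out, from 503 to between 229 and 272 in WT and from 354 to between 163 and 169 in 6DKO. When an IL-33 library of the other genotype was left out, they were 393 to 417 in WT and 270 to 291 in 6DKO. Without WT PBS replicate 1 or 2, calls over all genes in WT were 434 and 555. Averaged over genotypes, the count was 6 or 7 whichever library was left out. It was 5 without replicate 2 of both 6DKO groups, the libraries with the highest NK cell or alveolar macrophage sums. Calls over all genes fell there as well, from 1038 (9.05%) to 882 (7.69%). A fit with 6DKO IL-33 replicate 1 as the only library of its group takes the spread from the other groups. It assumes that the lone library varies like them, so its calls are not counted here. Without both replicates 2, the log2 fold changes of the genes that lost their call were similar to those with all libraries, 3.65 for H2-Aa and 2.90 for H2-Ab1. With replicate 1 alone the log2 fold changes were 4.01 for H2-Aa, 3.21 for H2-Ab1 and 4.30 for H2-Eb1.

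The second comparison asked whether the genotypes differed under IL-33. By limma none of the 10 genes was called, and 0.00872% of all fitted genes were (1 gene, lower in 6DKO, and 228 genes with an unadjusted p under 0.05). All 10 genes had an adjusted p of 1, and Cd80 alone had an unadjusted p under 0.05, at 0.00724. The means were nonetheless higher in 6DKO for the class II chains. H2-Aa was 2.40-fold, H2-Ab1 2.39-fold, H2-Eb1 2.32-fold and Cd74 1.87-fold higher than in WT, and Cd274 was 1.81-fold higher. H2-DMa, at 1.18-fold, differed less than its replicates did.

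The 3 libraries of 6DKO IL-33 lay above the 3 of WT IL-33 in 5 of the 10 genes, H2-Aa, H2-Ab1, H2-Eb1, Cd80 and Cd274, which was the case for 6.85% of all fitted genes. An exact permutation test of 3 libraries against 3 gave p = 0.1 for each of these 5, the smallest it can give. The fit shares 1 spread among all groups, although the median spread was larger in the PBS libraries, so for genes that varied more under PBS its p-values between genotypes are too large under IL-33 and too small under PBS. This does not hold for every member: H2-DMb1, Ciita, Cd80 and Cd86, at or near 0 in the PBS libraries, varied more under IL-33. In a limma fit of the IL-33 libraries alone, 6 of the 10 genes were higher in 6DKO with an unadjusted p under 0.05, as were 4.38% of all fitted genes. None of the 6 passed the adjustment. H2-Ab1 came closest, at a log2 difference of 1.27 ± 0.18 (SE; limma adjusted p = 0.134, range over all alternatives 0.134 to 1). With array weights, which give noisier libraries less weight, limma called 60 genes and again none of the 10.

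Under PBS, limma called none of the 10 genes between the genotypes, and 0.619% of all fitted genes (71 genes, with 1491 at an unadjusted p under 0.05). Fewer genes were called when the spread of the PBS libraries was allowed for, 1 gene with array weights and 1 gene in a fit of the PBS libraries alone. H2-Aa had a log2 difference of 3.21 ± 1.19 (SE; limma adjusted p = 0.293), and H2-DMa one of 2.19 ± 0.77 (limma adjusted p = 0.28). For both, the libraries of the genotypes overlapped. Of the 10 genes, 1 was called without WT PBS replicate 3, H2-Aa, and 1 without 6DKO PBS replicate 1, H2-DMa, whose value in the library left out was 0. In these fits the calls over all genes rose as well, from 71 to 216 (1.88%) and 180 (1.57%).

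The change under IL-33 was not shown to differ between genotypes for any of the 10 genes. The interaction was called by limma for none of them and for 0.0262% of all fitted genes (3 genes, with 659 at an unadjusted p under 0.05). Cd80 had an interaction of 1.07 ± 0.44 on the log2 scale (SE; limma unadjusted p = 0.034, adjusted p = 0.855). Comparisons with IL-33 within each genotype share their libraries with those between genotypes, so they are not independent of each other.

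Markers of cells known to carry more class II were read in the same libraries. Of 13 measured B cell markers, Ms4a1, Pax5, Blk, Cr2 and Fcrla were listed at 0 in all 12 libraries. The list sum was 0.306, 0.214 and 22.7 FPKM in WT PBS and 0.317, 0.677 and 9.04 FPKM in 6DKO PBS. It was 26.9, 15.2 and 12.1 FPKM in WT IL-33 and 3.85, 18.7 and 8.44 FPKM in 6DKO IL-33. The most abundant gene of the list, Cd79b, a chain of the B cell receptor complex, was called higher under IL-33. The library with the most Cd74, 6DKO IL-33 replicate 1, had the lowest B cell sum of the IL-33 libraries. The part that B cell RNA had in the class II values was not tested.

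Of 12 dendritic cell markers, Clec9a and Clec10a were listed at 0 in all libraries, Flt3 did not exceed 0.21 FPKM, and Itgax, the gene of CD11c, was above 1 FPKM only in 6DKO PBS replicate 2, at 2.83 FPKM. The list sum was 12.8, 12.6 and 37.3 FPKM in WT PBS and 6.15, 20.6 and 28.9 FPKM in 6DKO PBS. It was 33.3, 58.7 and 98.4 FPKM in WT IL-33 and 82.9, 77.8 and 136 FPKM in 6DKO IL-33. In the IL-33 libraries most of this sum was Ccr7, a chemokine receptor that lymphocytes also express, which was 25.1, 44.0 and 78.6 FPKM in WT IL-33 and 63.5, 56.6 and 112 FPKM in 6DKO IL-33. Zbtb46, a transcription factor gene of conventional dendritic cells, was 2.49, 7.84 and 8.18 FPKM in WT IL-33 and 10.48, 10.46 and 10.68 FPKM in 6DKO IL-33. Batf3, another such gene, was 0, 2.205 and 0 FPKM in WT IL-33 and 2.38, 4.76 and 7.34 FPKM in 6DKO IL-33. For Zbtb46 and Batf3, as for the class II chains H2-Aa, H2-Ab1 and H2-Eb1, the 6DKO IL-33 libraries lay above the WT IL-33 libraries, and neither was called between genotypes (limma adjusted p = 1 and 0.822). Xcr1, a chemokine receptor of cross-presenting dendritic cells, was 4.63 to 11.4 FPKM in the IL-33 libraries, with overlapping genotypes. In 6DKO PBS replicate 1 the list sum was mostly Xcr1, at 5.95 FPKM, and in 6DKO PBS replicate 2 mostly Zbtb46, at 10.3 FPKM, and Xcr1, at 7.40 FPKM. Averaged over genotypes, Ccr7 and Batf3 were called higher under IL-33, and Zbtb46 (limma adjusted p = 0.0727) and Xcr1 (limma adjusted p = 0.208) were not. The part that dendritic cell RNA had in the class II values was not tested.

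Of 15 macrophage and monocyte markers, Csf1r did not exceed 0.07 FPKM in any library, and Adgre1, the gene of F4/80, was above 1 FPKM only in 6DKO PBS replicate 3, at 3.06 FPKM. The most abundant gene of the list was Ccr2, at 85.3 to 378 FPKM, which ILC2s also express and which fell under IL-33, with a log2 fold change of -1.69. Cd68 was 1.15, 0 and 0 FPKM in WT IL-33 and 4.87, 4.15 and 2.096 FPKM in 6DKO IL-33. It was called higher under IL-33 averaged over genotypes, but not between genotypes. Lyz2 was 0.724, 3.93 and 0.720 FPKM in WT IL-33 and 5.40, 22.2 and 57.9 FPKM in 6DKO IL-33, and Apoe was 0.357, 0.564 and 1.12 FPKM against 2.46, 9.36 and 1.304 FPKM. Cd68, Lyz2 and Apoe were thus higher in every 6DKO IL-33 library than in any WT IL-33 library, as were H2-Aa, H2-Ab1 and H2-Eb1, and none of them was called between genotypes (limma adjusted p = 0.458 for Cd68 and 1 for Lyz2 and Apoe). Of the 15 markers, 2, 3 and 2 were above 1 FPKM in the WT IL-33 libraries and 5, 7 and 7 in the 6DKO IL-33 libraries. The list sum was 95.3, 115 and 87.2 FPKM in WT IL-33 and 164, 138 and 167 FPKM in 6DKO IL-33. The sum of the 9 measured alveolar macrophage markers was 4.29, 5.17 and 1.68 FPKM in WT IL-33 and 0.533, 404 and 85.1 FPKM in 6DKO IL-33. In 6DKO IL-33 replicate 1, where it was 0.533 FPKM, the summed FPKM of H2-Aa, H2-Ab1, H2-Eb1 and Cd74 was 1842, against 1389 and 1674 in replicates 2 and 3. In 6DKO PBS replicate 2, where NK cell and macrophage markers were high, that class II sum was 61.9 FPKM, the lowest of its group. Whether RNA from macrophages contributed to the genotype difference was not tested. In bulk RNA, more cells of a type and more RNA per cell cannot be told apart.

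Lists of other cells were read in the same way. The sums over 11 epithelial markers were highest in 6DKO IL-33 replicate 3, at 125 FPKM, and the aspartic protease gene Napsa of that list was called higher under IL-33 while Epcam was called lower. Of 7 mast cell and basophil markers, Cpa3 was the most abundant, at 17.8 to 89.3 FPKM, except in WT PBS replicate 3, where Hdc was 134 FPKM, and it was called lower under IL-33 averaged over genotypes. T cell markers summed to 206 to 483 FPKM, nearly all from Cd3g, and Cd4 was listed at 0 in every library. Trat1 of that list, a T cell receptor adaptor gene, was listed at 0 in the 6 PBS libraries, was 1.84 to 27.3 FPKM in the IL-33 libraries and was called higher averaged over genotypes. The sums over ILC3 markers were 9.01 to 188 FPKM, with Il17f and Il17a the main genes. Averaged over genotypes, Il17a was called higher under IL-33, with a log2 fold change of 1.52, and the median over the 6 ILC3 markers was 1.26. The part that RNA of these cells had in the class II values was not tested. Endothelial markers summed to at most 23.1 FPKM, fibroblast markers to at most 4.51 FPKM, neutrophil markers to at most 4.13 FPKM and eosinophil markers to at most 1.99 FPKM.

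**Figure D2:**
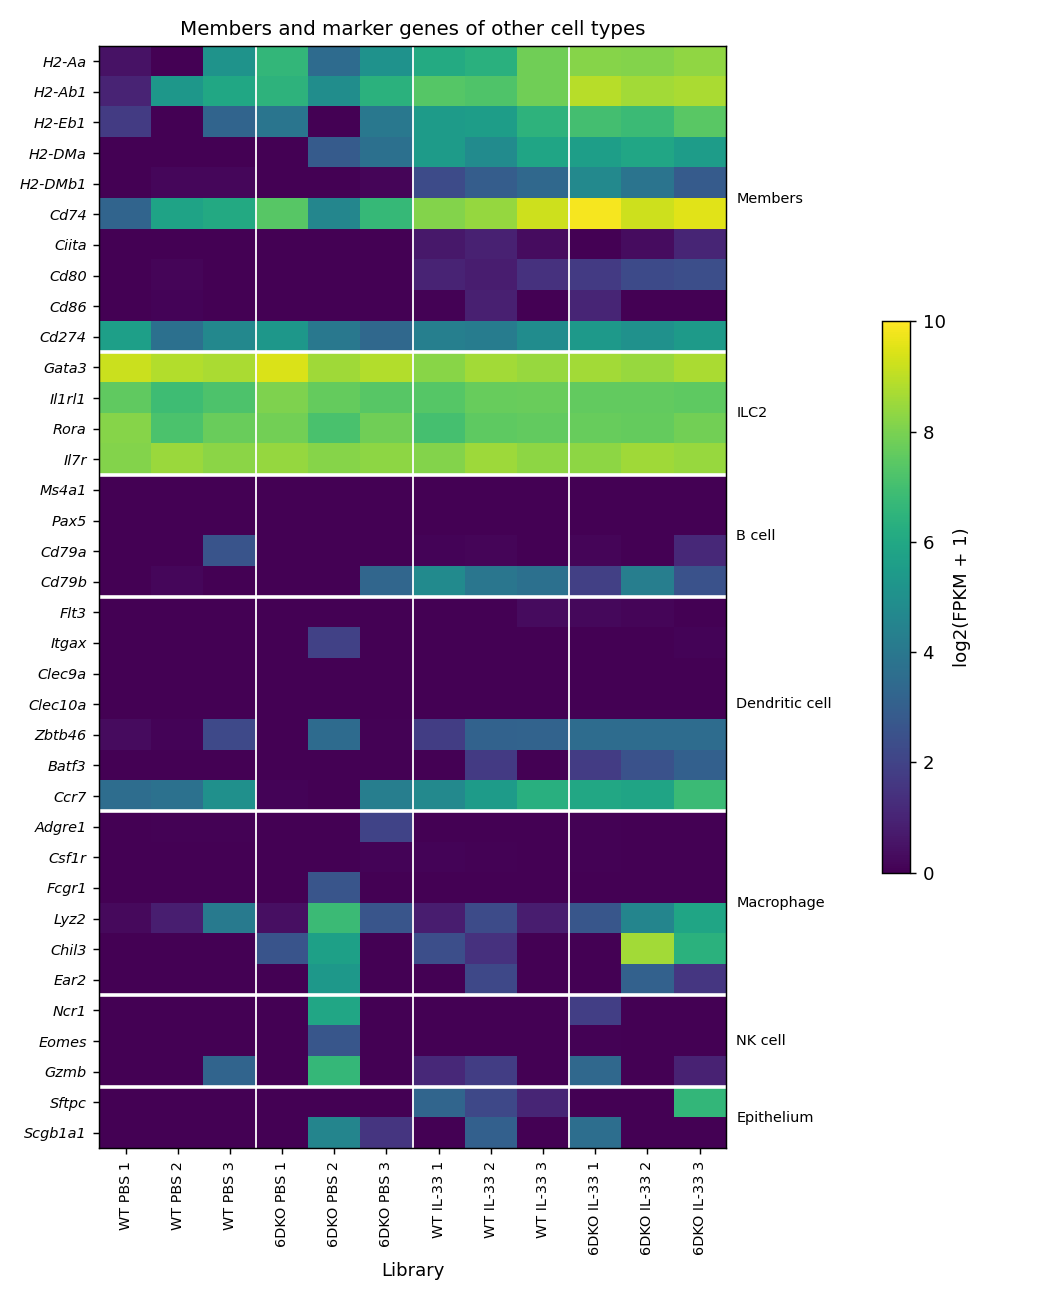
The colours give log2(FPKM + 1) of the 10 genes and of selected markers in each of the 12 libraries. The B cell genes Ms4a1 and Pax5 and the dendritic cell genes Clec9a and Clec10a are at 0 throughout. The dendritic cell gene Zbtb46 is 10.46 to 10.68 FPKM in 6DKO IL-33 and nearly as high, 10.27 FPKM, in 6DKO PBS replicate 2. It was not called between genotypes under IL-33. NK cell genes stand out in 6DKO PBS replicate 2, and Chil3 stands out in 6DKO IL-33 replicates 2 and 3.

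Other genes of the class II pathway moved in part with the members. Of 4 other measured class II genes, 2 were called higher under IL-33 averaged over genotypes and none lower. The share called higher over all fitted genes was 5.89%. H2-DMb2 rose by 2.74 on the log2 scale, and H2-Ob, the β chain of H2-DO, which restrains H2-DM, rose by 1.93. H2-Oa, the α chain of H2-DO, behaved differently. It was 78.7, 119 and 58.2 FPKM in WT PBS and 49.4, 45.1 and 54.8 FPKM in WT IL-33, and its averaged change of -0.65 was not called (limma adjusted p = 0.0659). H2-Oa was thus abundant in PBS libraries in which H2-DMa was listed at 0.

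Of 9 measured genes for antigen processing and class II turnover, 2 were called higher averaged over genotypes and none lower. The share called higher over all fitted genes was 5.89%. Ctss, the cathepsin that trims the invariant chain, was 68.4, 86.8 and 28.3 FPKM in WT PBS and 169, 149 and 173 FPKM in WT IL-33, and rose by 1.79 on the log2 scale. Ifi30, a lysosomal thiol reductase gene, was 7.05, 0 and 0 FPKM in WT PBS and 17.4, 25.4 and 32.2 FPKM in WT IL-33, and was 41.8, 7.16 and 18.5 FPKM in 6DKO PBS and 19.1, 24.3 and 34.95 FPKM in 6DKO IL-33. Its averaged log2 fold change was 2.06. Within 1 genotype it was called in WT, at 3.66, and not in 6DKO, at 0.47 (limma adjusted p = 0.84). The interaction was called for none of these 9 genes. March1, whose product marks class II for degradation, was 0 to 0.46 FPKM.

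None of the 7 genes of the class II transcription complex, such as Rfx5 and Nfyc, was called in any comparison. Of the interferon gamma pathway, which can induce Ciita, the receptor gene Ifngr1 was abundant, at 312 to 596 FPKM, whereas Ifng was above 1 FPKM in WT PBS replicate 3, 6DKO PBS replicate 2 and 6DKO IL-33 replicate 3 only.

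None of the 4 other measured B7 family genes was called. Icosl and Pdcd1lg2 were expressed, at 22.4 to 41.2 FPKM and 4.21 to 24.9 FPKM, while Cd276 and Vtcn1 were listed at 0 in all libraries. Of 7 receptors of B7 ligands and class II, 2 were called higher and 1 lower averaged over genotypes. The share called higher over all fitted genes was 5.89%. Ctla4, the inhibitory receptor for CD80 and CD86, was 9.11, 0 and 0 FPKM in WT PBS and 136, 132 and 200 FPKM in WT IL-33. In 6DKO it was 0, 32.8 and 8.37 FPKM under PBS and 176, 143 and 125 FPKM under IL-33. Within 1 genotype it was called in WT and not in 6DKO, and its interaction was not called. Tigit rose by 3.72 on the log2 scale, and Icos fell, with a log2 fold change of -0.53. Pdcd1, the receptor gene for PD-L1, was 175 to 480 FPKM over all libraries and was not called. Lag3, an inhibitory receptor for class II, was 0 in the PBS libraries and 0.39, 0.37 and 0.75 FPKM in WT IL-33, against 0.06, 0.07 and 0 FPKM in 6DKO IL-33, and was not called between genotypes (limma adjusted p = 1).

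Of 15 genes for MHC class I presentation, 6 were called higher averaged over genotypes and 1 lower, where 5.89% of all fitted genes were called higher. Tap1, a peptide transporter, rose by 1.49 on the log2 scale, and Psmb9, a subunit of the immunoproteasome, by 1.43. H2-Q7, H2-T23, B2m and H2-K1 rose by 0.73, 0.55, 0.42 and 0.39, and the chaperone gene Calr fell, with a log2 fold change of -0.72. These called changes were smaller than those of the class II chains. Genes for class I were abundant without IL-33, with B2m at 6557 to 7971 FPKM in the PBS libraries.

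The class II members other than Cd74 lie close together on chromosome 17, in GRCm38 coordinates from the GENCODE annotation. H2-DMa lies at 34119541 to 34139101, H2-DMb1 at 34153072 to 34160230, H2-Ab1 at 34257689 to 34269419, H2-Aa at 34282744 to 34287823 and H2-Eb1 at 34305867 to 34316674. Ciita, Cd80 and Cd86 lie on chromosome 16, Cd274 on chromosome 19 and Cd74 on chromosome 18. Between the start of H2-Oa, at 34092340, and the end of H2-Eb2, at 34341412, 14 genes were measured, of which 9 are not members. Of these 9, 4 were called higher under IL-33 averaged over genotypes and none lower, where 5.89% of all fitted genes were called higher. They were H2-DMb2, Psmb9, Tap1 and H2-Ob, which lay among genes that were not called, such as Psmb8, Tap2 and H2-Oa. Exons of H2-DMa overlap 360 bases of Brd2 exons on the opposite strand. Brd2 averaged 28.7 FPKM in WT PBS, where H2-DMa was listed at 0. Exons of Ciita overlap 329 bases of Dexi and those of Cd274 511 bases of AC119228.1, each on the opposite strand, and Cd74 exons overlap 12 bases of Mir5107.

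**Figure D3:**
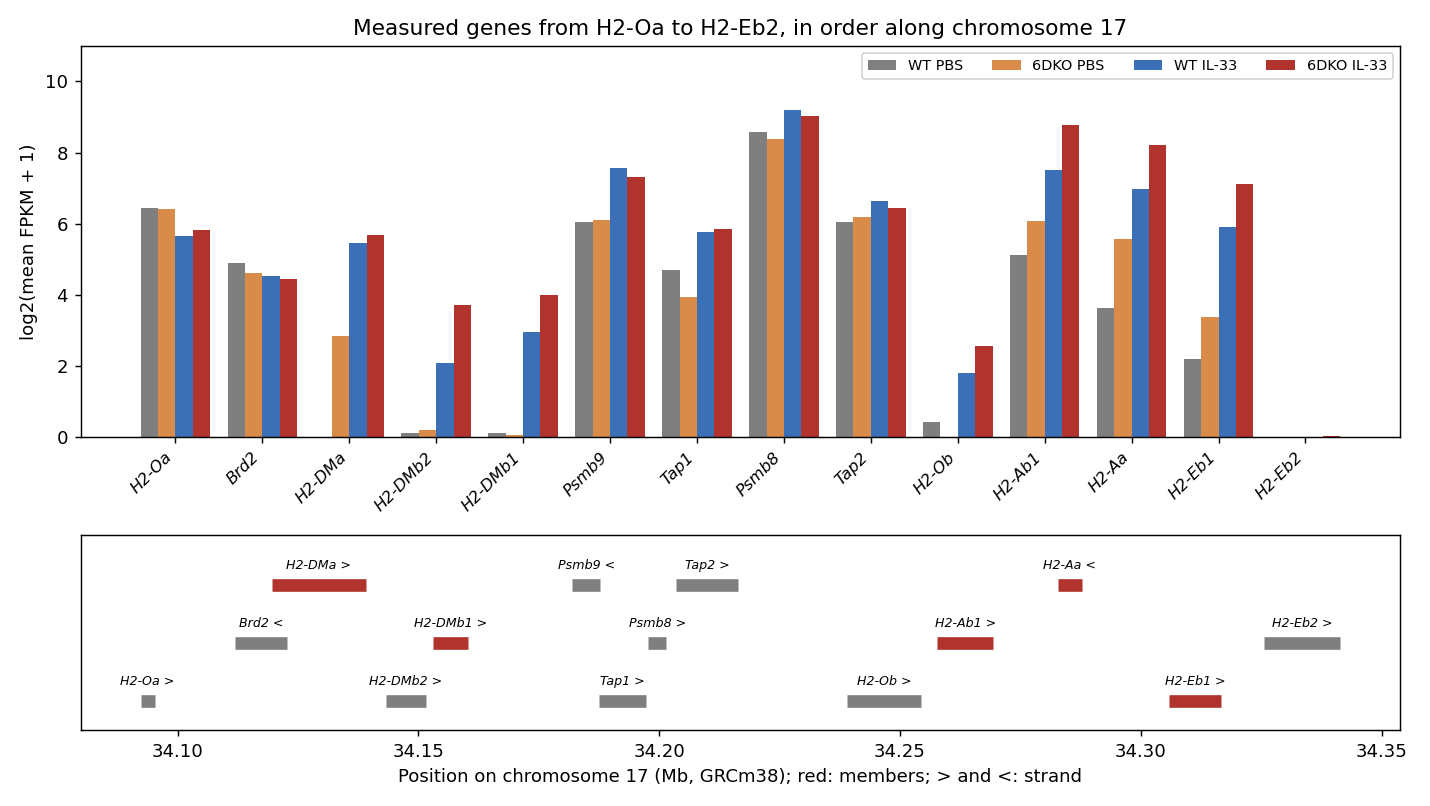
The bars give log2(mean FPKM + 1) in each group for the 14 measured genes between H2-Oa and H2-Eb2, and the map shows their positions on chromosome 17 with members in red. Class II chain genes are higher in 6DKO IL-33 than in WT IL-33, while Psmb9, Psmb8 and Tap2 are not.

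After the mean of each group was subtracted, the members were compared with other genes over the 12 libraries. The 10 other genes most like the mean of H2-Aa, H2-Ab1, H2-Eb1 and Cd74, among 10711 genes compared in this way, were 2210018M11Rik, 1700025G04Rik, Sqle, Sclt1, Arrdc3, Unc119, Armcx3, Dhdds, Mdp1 and Rif1, with a Pearson r between 0.94 and 0.96. None of them is in a list used here. Libraries of 1 group share depth and cell makeup, so these correlations are descriptions only.

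Class II promoters carry an X box and a Y box, short motifs that together recruit Ciita through DNA-binding proteins. Promoters from RefSeq (GRCm38.p6), 250 bases before to 50 after each start, were found for 6 of the 10 members, H2-Aa, H2-Eb1, H2-DMa, H2-DMb1, Cd80 and Cd274, and for H2-DMb2. Entries for H2-Ab1, Ciita and Cd86 were missing, and the Cd74 promoter was not searched. An X1-like motif, AGNNACNNNTG on either strand, occurred in the promoters of H2-Eb1 and H2-DMb1 and in 14.8% of all 32851 promoters. The Y box core CCAAT, on either strand, occurred in H2-Aa, H2-Eb1, H2-DMb1, H2-DMb2 and 1 of 2 promoters of H2-DMa, and in 37.4% of all promoters. An X1-like motif followed after 15 to 40 bases by ATTGG, the Y box core read on the other strand, occurred in H2-Eb1 and H2-DMb1 and in 0.332% of all promoters. The longer TGATTGG, which contains ATTGG and was chosen after the promoters were seen, occurred in H2-Aa, H2-Eb1, H2-DMb1 and H2-DMb2 and in 7.82% of all promoters. Cd80 and Cd274 held none of these motifs in this window.

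The stretches around TGATTGG are shown for the class II genes whose stretch lies outside annotated exons, to set their shared letters side by side. They run from 60 bases before the motif to 20 after it, on the strand of the gene. Capitals mark TGATTGG and, where present, the fixed letters of the X1-like motif. In H2-Eb1 20 bases separate the X1-like motif from TGATTGG. A match is a description of letters and not of a bound site. The positions are chr17:34305746-34305832 on the plus strand for H2-Eb1, chr17:34287847-34287933 on the minus strand for H2-Aa and chr17:34145097-34145183 on the plus strand for H2-DMb2.
H2-Eb1: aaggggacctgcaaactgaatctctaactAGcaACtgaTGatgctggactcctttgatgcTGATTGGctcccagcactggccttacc
H2-Aa: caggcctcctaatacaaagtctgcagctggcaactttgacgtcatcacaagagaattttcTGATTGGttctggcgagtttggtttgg
H2-DMb2: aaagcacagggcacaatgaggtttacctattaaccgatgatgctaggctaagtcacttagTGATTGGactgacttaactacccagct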

How the data were processed

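FPKM values of 12 libraries were deposited by the authors, who aligned single-end reads of 75 bases to mm10. The submitters' processing notes name TopHat2 2.1.1, Bowtie2 and Cuffdiff 2.2.1; the study's methods name other versions and Cuffnorm. Library kits conflict too: SMART-Seq HT with Nextera in the labels, a stranded kit in the methods, so whether strand was used in counting is not settled.

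From these values, log2(FPKM + 1) was fitted with limma 3.58.1 (R 4.3.3; eBayes with trend, 4 group means, 8 residual degrees of freedom) over 11468 genes that averaged 0.5 FPKM or more or were on a list. Two-sided p-values were adjusted over all of them (Benjamini-Hochberg). Exact permutation tests were used for single genes; with 3 libraries against 3 they cannot give a p below 0.1. Python 3.11.15, numpy 2.4.6 and pandas 2.3.3 gave the other values.

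The fit assumes 1 spread per gene. Tested on simulated data, it held the share of false calls near the threshold when that was so, but not when PBS libraries varied more than IL-33 libraries, as they did here: between genotypes it then called unchanged genes under PBS, which array weights largely corrected, and among the IL-33 calls false ones exceeded the threshold with or without weights. Adjusted p-values should be read with this limit.

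The members and lists were chosen with earlier results of these data known. Named genes are all members, up to 5 called genes per list, direction and contrast or else the 2 most abundant, the 10 most alike genes, and markers; other genes, among them H2-Oa, Brd2, Psmb8, Tap2, Ifng, Ifngr1, March1, Cd276, Vtcn1, Pdcd1, Lag3 and single markers, were chosen after their values were seen. The listed symbols H2-Ea, Marchf1, Marchf8, Vsir, Ighm, Ighd, Siglec5 and Ly6g were not measured. Relative depth came from genes under 3 FPKM in every library and above 0 in at least 4; of 1727 such genes, 45.4% gave whole multiples in all libraries to within 0.05, so reads are given only for genes that did, on the assumption that the smallest step is 1 read. Some listed genes are not reported here.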

Additional observations from a re-analysis of the deposited data

How the results depend on the processing

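The counts of called members moved with the processing within 1 genotype. In WT the count of 5 became 3 without a filter, without the trend and in a fit of only the groups compared. Of all fitted genes, 3.12%, 3.46% and 4.61% were called in these fits, against 4.39% in the main fit. In 6DKO, where 3.09% of all genes were called in the main fit, the count of 5 became 2 with a pseudocount of 0.1 (3.44% of all genes). It became 2 without a filter (2.25%) and 3 without the trend (2.62%). It was 3 with the replicate block (2.05%) and in a fit of only the groups compared (2.83%), and 2 without replicate 2 of both 6DKO groups (2.11%). The last setting was chosen after the data were seen, and its lower count also comes from fewer samples. The fit with 6DKO IL-33 replicate 1 as the only library of its group was also chosen after the data were seen. With 1 library in a group its spread is assumed to be that of the other groups, so its calls are not counted here. Averaged over genotypes, the count of 7 became 4 with 6DKO IL-33 replicate 1 alone and was 5 without replicate 2 of both 6DKO groups and lay between 6 and 8 under the other alternatives. Leaving out single libraries gave 1 to 6 in WT, 2 to 6 in 6DKO, 6 to 7 averaged and 0 to 1 between genotypes under PBS. The shares of all genes called were then 2% to 6.16%, 1.42% to 4.46%, 6.16% to 11.1% and 0.174% to 1.88%. Between genotypes under IL-33 and for the interaction the count was 0 under every alternative counted. Same-numbered libraries are not shown to be paired: their correlations lay between -0.05 and 0.04, and 2 of 12 libraries matched best with their own number. With the replicate block the counts were 5, 3, 7, 0, 0 and 0 for WT, 6DKO, averaged, IL-33, PBS and interaction. Of all genes, 3.25%, 2.05%, 7.46%, 0.00872%, 0.148% and 0.00872% were called there.

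Quantile normalization moved the median of all genes under IL-33 from 0.16 to -0.03 averaged over genotypes. It reversed Cd86 under IL-33 in WT (-0.38), in 6DKO (-0.0734) and averaged (-0.23), Cd86 between genotypes under IL-33 (-0.0112) and Ciita under IL-33 in 6DKO (-0.0326). A pseudocount of 0.1 reversed Cd86 between genotypes under IL-33 (-0.0739). The interaction reversed for Cd74 with array weights (0.0947) and with 6DKO IL-33 replicate 1 alone (0.0801), and for H2-Eb1 without replicate 2 of both 6DKO groups (-0.88). Leaving out single libraries reversed values that were not called: under IL-33 in WT, Cd86 (-0.00088 to 0.45) and Cd274 (-0.70 to 0.28); between genotypes under IL-33, H2-DMa (-0.0082 to 0.52), Ciita (-0.47 to 0.0379) and Cd86 (-0.32 to 0.31); under PBS, Cd274 (-0.99 to 0.0476); and for the interaction, H2-Ab1 (-1.50 to 0.99), H2-Eb1 (-1.02 to 1.12), Cd74 (-1.05 to 0.67), Ciita (-0.47 to 0.0379) and Cd86 (-0.29 to 0.34). The cause was not tested. FPKM carries no read totals, so no counting interval is given, and a value listed at 0 does not show absence.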
